A study of Homo sapiens with 6 samples.

Results

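The numbered zinc finger genes, those named ZNF followed by a number, were followed in HEY cells after knockdown of PQBP1. HEY is an established human ovarian carcinoma line, and PQBP1 is a polyglutamine-binding nuclear protein that takes part in pre-mRNA splicing. The deposited gene table held 32679 genes, of which 482 had such a name with at most 1 letter after the digits. Of these, 132 were selected on a mean of at least 2 FPKM over the 6 samples (a level per length of transcript, scaled to the fragments mapped in the sample), and they are called the members here. A further 121 had a mean from 1 to under 2 FPKM and 229 had a mean under 1 FPKM, 6 of which were listed at 0 in every sample. All 132 members were protein coding in the GENCODE release 44 annotation and carried the same symbol there.

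Both groups were stable lines made with lentivirus and puromycin, sampled at day 3, with 3 samples each. The shNC samples carried a control hairpin and, by the labels, received no treatment, while the shPQBP1 samples carried a hairpin against PQBP1 and received doxycycline at 1 µg/ml. The hairpin and doxycycline therefore cannot be told apart in these data. The samples were described as biological triplicates without further detail on separate cultures, so the p-values measure the spread between these samples, which may be technical.

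C2H2 zinc finger proteins are the largest class of human transcription factors. Each finger folds around a zinc ion held by a pair of cysteines and a pair of histidines, and arrays of fingers read DNA sequence. Many of them also carry a KRAB domain, which recruits TRIM28 and, through it, the histone methyltransferase SETDB1 and HP1 proteins, and is best known for silencing transposable elements. KRAB zinc finger genes lie largely in clusters on chromosome 19 and are mostly expressed at low levels.

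The zinc finger itself is shown for 7 members on which the results below turn, because it is the sequence feature that the gene name refers to. Each line gives the first finger of the reference coding sequence, 63 bases in the sense direction on hg38, with the codons of the zinc-binding cysteines and histidines in capitals. Finger counts here and below are matches of a spacing pattern of cysteines and histidines, which can miss fingers of other spacing. The finger of ZNF114 is the first of 3 (chr19:48286540-48286602, plus strand), that of ZNF860 the first of 12 (chr3:31989857-31989919, plus strand) and that of ZNF426 the first of 11 (chr19:9529307-9529369, minus strand). The finger of ZNF302 is the first of 7 (chr19:34684644-34684706, plus strand), that of ZNF184 the first of 19 (chr6:27452827-27452889, minus strand), that of ZNF367 the first of 2 (chr9:96398168-96398230, minus strand) and that of ZNF281 the first of 3 (chr1:200408857-200408919, minus strand).
ZNF114: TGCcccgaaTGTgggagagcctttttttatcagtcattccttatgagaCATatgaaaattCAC
ZNF860: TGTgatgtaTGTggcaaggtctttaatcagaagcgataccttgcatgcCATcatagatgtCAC
ZNF426: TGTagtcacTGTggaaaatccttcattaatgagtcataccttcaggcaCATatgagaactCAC
ZNF302: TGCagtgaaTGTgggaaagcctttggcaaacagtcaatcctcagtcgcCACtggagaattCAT
ZNF184: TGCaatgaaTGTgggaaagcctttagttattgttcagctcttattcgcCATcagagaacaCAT
ZNF367: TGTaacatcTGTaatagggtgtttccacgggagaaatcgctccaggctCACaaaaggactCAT
ZNF281: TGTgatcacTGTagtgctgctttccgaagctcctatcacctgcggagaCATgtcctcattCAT

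In the reference coding sequences, the 132 members encoded 1141 C2H2 fingers, with a median of 8.5 per gene. At least 1 finger was found in 128 members and 3 or more in 114. A KRAB-like letter pattern was found in 49 members, of which 28 lay on chromosome 19, and a SCAN-like pattern in 3. The KRAB-like members had a median of 11 fingers and the other 83 members a median of 6. The same KRAB pattern matched 338 of the 715 protein-coding genes of the annotation with 3 or more fingers and 53 of the 19331 with fewer, so the pattern is not exact. Near-identical copies touch few members, since 96 shared none of their 100-base transcript windows with another gene and 7 shared at least 20%. Exons of 35 members overlapped an antisense gene, in 13 of them over at least 20% of the exon bases.

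The members were mostly weakly expressed. Their mean over the 6 samples ran from 2.01 to 33.8 FPKM with a median of 3.75, 93 of the 132 were under 5 FPKM, and 12 were over 10. No member was at 0 in any sample. The 5 highest were ZNF622, a factor in maturation of the large ribosomal subunit, ZNF22, ZNF185, an actin-associated LIM domain protein in which no C2H2 finger was found, the nucleolar protein ZNF330, also without one, and ZNF697. ZNF622 stood at 39.60, 30.38 and 31.61 FPKM in the shNC samples and at 33.51, 35.18 and 32.61 in the shPQBP1 samples. None of these 5 genes separated the groups, and their log2 fold changes lay between -0.05 for ZNF22 and 0.18 for ZNF185.

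One library stood apart. The shNC 1 sample correlated with the other 5 at a Pearson's r of 0.926 to 0.955 across the tested genes, while the highest correlation of each of the others was 0.965 to 0.969. Among the members, shNC 1 was the lowest of its group for 69 of 132 genes and for 29 of the 33 with the lowest GC content. Group medians that moved by over 1.5 times without it are given with and without it. Of 9 epithelial and ovarian markers, the keratins KRT7, KRT8 and KRT18 were at 52.76 FPKM or more in every sample, PAX8 ran from 12.33 to 15.70 FPKM in shNC and from 18.41 to 24.08 in shPQBP1 without overlap (adjusted p = 0.102, limma), KRT19 was at 1.19 to 2.10 FPKM and EPCAM at 0.79 to 1.13, WT1 was at 0.63 to 0.71 FPKM in shNC and 0.31 to 0.45 in shPQBP1, and the defining markers CDH1 and MUC16 were at or near 0. Of the 4 markers of other cell types with a row in the table, PTPRC was at 0 in all samples and ALB at or under 0.03 FPKM, PECAM1 was at 0.23 to 0.25 FPKM in shNC and 0.02 to 0.06 in shPQBP1, and CDH5 ran from 2.11 to 2.96 in shNC and from 3.10 to 3.64 in shPQBP1. The part of these differences in the results was not tested.

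PQBP1 itself was lower in every shPQBP1 sample. Its FPKM was 7.18, 6.67 and 6.93 in the shNC samples and 1.68, 1.72 and 1.44 in the shPQBP1 samples, so the groups were far apart and matched their labels. The log2 fold change, taken throughout as shPQBP1 against shNC on log2(FPKM + 0.1), was -2.04 ± 0.10 (SE, n = 3 and 3), with an adjusted p of 0.00154 from limma, adjusted by Benjamini-Hochberg across 11413 tested genes. An exact permutation test of the 6 samples gave p = 0.1, the smallest that 3 samples against 3 allow. In bulk RNA, fewer cells with a transcript and less of it per cell cannot be told apart.

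Against this background, 3 of the 132 members passed an adjusted p of 0.05. ZNF860 and ZNF426 rose, where 1.73% of all genes tested passed in that direction, and ZNF114 fell, where 1.18% did. At a fold over 2 with an unadjusted p below 0.05 there were 4 members (ZNF114, ZNF860, ZNF302 and ZNF184), and 1.52% of all genes tested passed that rule. ZNF114, with a shPQBP1 mean of 1.15 FPKM, and ZNF860 and ZNF184, with shNC means of 1.71 and 1.43 FPKM, reached the limit of 2 FPKM only through the group in which they were high and so had to differ. Among the 120 members with both group means of at least 2 FPKM, a set chosen after seeing the data, 1 passed the adjusted threshold (ZNF426) and 1 the fold rule (ZNF302).

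ZNF114, a KRAB-like gene with 3 fingers (ENSG00000178150, chr19:48270081-48287608), was the member with the largest difference. It was chosen with that fall known, so its change is a description. Its FPKM was 4.18, 3.75 and 10.57 in the shNC samples and 1.23, 1.07 and 1.15 in the shPQBP1 samples. The 3 shPQBP1 samples were close together and all below the lowest shNC sample, while shNC 3 was more than 2-fold above the other shNC samples. The shNC mean was 5.36-fold the shPQBP1 mean (6.17 ± 3.82 against 1.15 ± 0.08 FPKM, SD, n = 3 each), and the log2 fold change was -2.17 ± 0.39 (SE; adjusted p = 0.0445, limma). The call depended on single samples. Leaving out shNC 3, the high sample, gave a log2 fold change of -1.70 with an adjusted p of 0.0246 from limma, while leaving out any 1 of the other 5 samples gave -2.44 to -2.12 with adjusted p-values of 0.0558 to 0.159. The exact permutation test over the 6 samples gave p = 0.1. Of its exon bases, 4.56% lay opposite the antisense gene ZNF114-AS1, and no source states that strand was used in counting.

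ZNF860 had the larger rise of the 2 called, and it entered the set through its shPQBP1 values, so its change is a description. This KRAB-like gene with 12 fingers (ENSG00000197385, chr3:31981750-31991723) stood at 1.31, 1.57 and 2.25 FPKM in the shNC samples and at 4.38, 3.75 and 3.87 in the shPQBP1 samples. Every shPQBP1 sample was above every shNC sample. The shPQBP1 mean was 2.34-fold the shNC mean, with a log2 fold change of 1.21 ± 0.20 (SE; adjusted p = 0.0352, limma). The adjusted p stayed under 0.05 without shNC 1 or without shNC 3 (0.0461 and 0.0361, limma) and lay between 0.0989 and 0.148 without each of the other 4 samples.

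ZNF426, a KRAB-like gene with 11 fingers in a cluster of such genes (ENSG00000130818, chr19:9523223-9538645), changed less but with little spread. It was at 2.37, 2.42 and 2.34 FPKM in the shNC samples and at 3.26, 3.46 and 3.73 in the shPQBP1 samples. The groups did not overlap, and the shNC samples differed from each other by under 0.1 FPKM. The log2 fold change was 0.53 ± 0.09 (SE; adjusted p = 0.043, limma). Without any 1 of the 6 samples the adjusted p rose to between 0.0519 and 0.175, and with a correction for transcript GC content and length the log2 fold change was 0.38 and the adjusted p 0.101 (limma; 0.0343 to 0.241 over all alternatives).

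**Figure D1:**
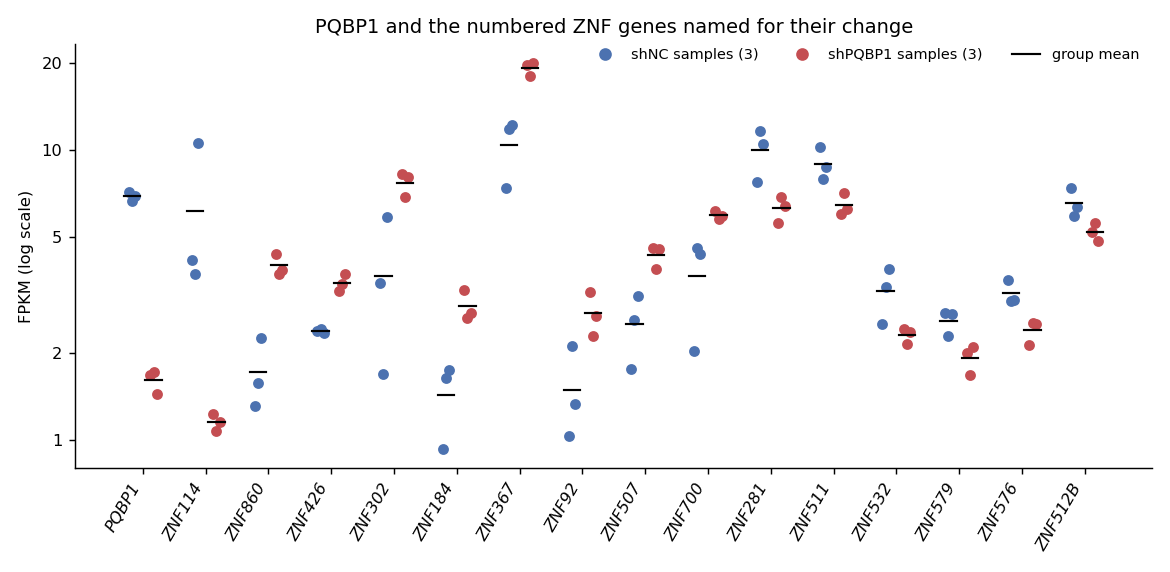
FPKM of PQBP1 and of 15 numbered ZNF genes in each sample, on a log axis, with the 3 shNC samples in blue, the 3 shPQBP1 samples in red and the group means as black lines. In every gene shown the groups do not overlap. ZNF114 falls from 3.75 to 10.57 FPKM in shNC to 1.07 to 1.23 in shPQBP1, and the lowest shNC point of ZNF367 and of ZNF700 is shNC 1.

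Among the members that missed the adjusted threshold, 6 were named as the largest rises with an unadjusted p under 0.05 and groups that did not overlap. ZNF302, a KRAB-like gene with 7 fingers, was at 3.47, 1.69 and 5.87 FPKM in shNC and at 8.27, 6.87 and 8.06 in shPQBP1 (log2 fold change 1.21 ± 0.41, SE; adjusted p = 0.156, limma). Its shNC samples spread widely, which the standard error shows. ZNF184, a KRAB-like gene with 19 fingers beside the histone genes of chromosome 6, was at 0.93, 1.63 and 1.74 FPKM in shNC and at 3.30, 2.63 and 2.74 in shPQBP1 (1.00 ± 0.25; adjusted p = 0.0873, limma). ZNF367, which has 2 fingers and no KRAB-like pattern, was the most strongly expressed of the 6, at 7.40, 11.80 and 12.21 FPKM in shNC and 19.76, 18.05 and 19.98 in shPQBP1. Its log2 fold change was 0.91 ± 0.20 (SE; adjusted p = 0.068, limma), and without shNC 1, its lowest sample, 0.68 with an adjusted p of 0.0184 (limma; 0.0184 to 0.225 over all alternatives). ZNF92, ZNF507 and ZNF700 had log2 fold changes of 0.88, 0.81 and 0.77 with adjusted p-values of 0.134, 0.103 and 0.198 (limma). ZNF184 and ZNF92, with shNC means of 1.43 and 1.49 FPKM, reached the limit of 2 FPKM only through shPQBP1 and had to be higher. ZNF700 was at 2.03 FPKM in shNC 1 against 4.60 and 4.37 in the other shNC samples, and without shNC 1 its log2 fold change was 0.41 and its adjusted p 0.0494 (limma; 0.0494 to 0.391 over all alternatives). Of its 100-base transcript windows, 12.8% were shared with other genes.

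The 6 largest differences in the other direction, by the same rule and apart from ZNF114, were smaller, and none of these genes had a KRAB-like pattern. ZNF281, in which the letter pattern matched 3 fingers, is known to interact with MYC and to take part in epithelial to mesenchymal transition. It was at 7.75, 11.69 and 10.52 FPKM in shNC and at 5.63, 6.92 and 6.43 in shPQBP1. Its log2 fold change was -0.63 ± 0.17 (SE; adjusted p = 0.106, limma), and without shNC 1, its lowest shNC sample, it was -0.81 with an adjusted p of 0.0333 (limma; 0.02 to 0.291 over all alternatives). ZNF532, known as a fusion partner of NUTM1 in NUT carcinoma, was at 2.51, 3.37 and 3.89 FPKM in shNC and at 2.41, 2.15 and 2.36 in shPQBP1. Here too the distance between the groups was small beside the spread within shNC, with a log2 fold change of -0.46 ± 0.17 (adjusted p = 0.18, limma), and without shNC 1, the lowest shNC sample, one of -0.63 with an adjusted p of 0.0489 (limma; 0.0489 to 0.354 over all alternatives). ZNF511 had a log2 fold change of -0.46, but 41.4% of its transcript windows were shared, with the read-through gene ZNF511-PRAP1, and its value is uncertain for that reason. ZNF579, ZNF576 and ZNF512B had log2 fold changes of -0.41, -0.41 and -0.32 with adjusted p-values of 0.148, 0.126 and 0.16 (limma). ZNF579 had a shPQBP1 mean of 1.92 FPKM and reached the limit of 2 FPKM only through shNC, so it had to be lower.

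The members as a whole leaned toward higher values in shPQBP1, which is given as a description. Of the 132, 85 had a positive and 47 a negative log2 fold change, with a median of 0.13 (interquartile range -0.09 to 0.36), and the median of all 11413 genes tested was 0.02. At an unadjusted p under 0.05, 20 members (15.2%) were higher and 11 (8.33%) lower, beside 11.9% and 11.7% of all genes tested. The groups did not overlap in 29 members that were higher (22.0%) and 13 that were lower (9.85%), beside 17.3% and 17.1% of all genes tested. The rule itself touches these counts, since 12 members had a mean under 2 FPKM in 1 group and were kept through the other, so that they had to differ to some degree. Among the 120 members with both group means of at least 2 FPKM, 15 were higher and 9 lower by the same measure, and the median was 0.11. Without shNC 1 the median over all members was 0.09 and that of all genes tested 0.01, with 26 members higher and 10 lower, beside 13.4% and 11.4% of all genes tested.

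**Figure D2:**
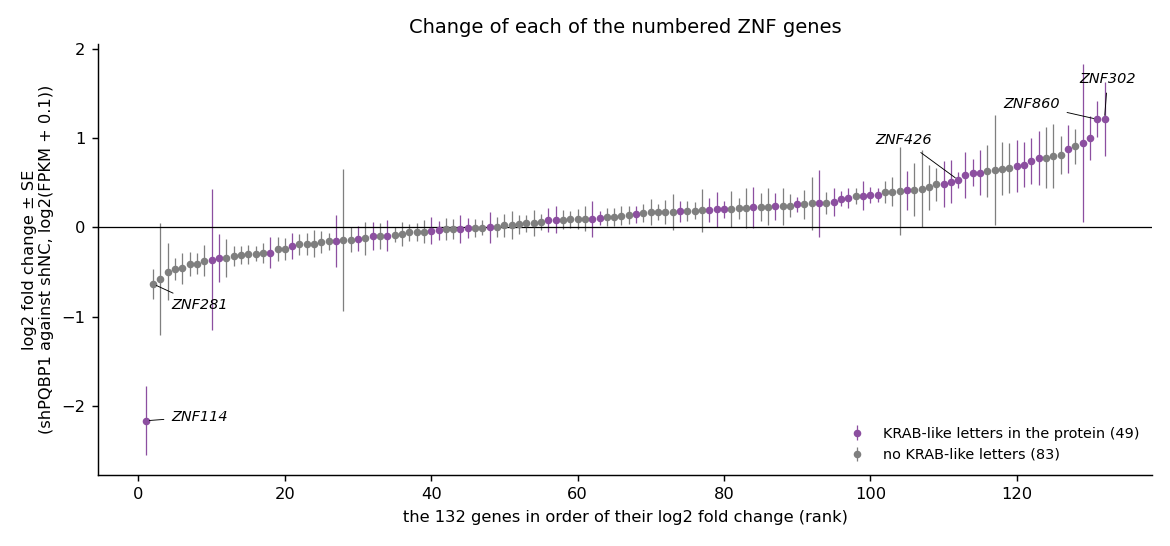
Log2 fold change of each of the 132 members, shPQBP1 against shNC, in order of size, with bars for the standard error and purple for the 49 members with a KRAB-like pattern. ZNF114 lies alone at -2.17, ZNF302 and ZNF860 lie at the upper end at 1.21, and purple points are denser on the right.

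The KRAB-like members leaned higher than the rest, again as a description. Of the 49, 36 had a positive log2 fold change and the median was 0.23, while the median of the 83 others was 0.08. At an unadjusted p under 0.05, 15 of the 49 (30.6%) were higher and only ZNF114 was lower. In the 83 others, 5 were higher (6.02%) and 10 lower (12.0%), beside 11.9% and 11.7% of all genes tested. These counts too hold members that passed the limit through 1 group. They were ZNF860, ZNF184, ZNF92, ZNF23 and ZNF417 among the higher KRAB-like genes, ZNF114, and ZNF579 among the 10 lower others. With both group means of at least 2 FPKM, 10 of 42 KRAB-like members were higher and 0 lower with a median of 0.20. Of the 78 others, 5 were higher and 9 lower with a median of 0.07 (0.04 without shNC 1). Besides ZNF860, ZNF426, ZNF302, ZNF184, ZNF92 and ZNF700, the higher KRAB-like genes were ZNF354A, ZNF670, ZNF189, ZNF23, ZNF627, ZNF561, ZNF417, ZNF202 and ZNF256, with log2 fold changes from 0.26 in ZNF256 to 0.74 in ZNF354A. Without shNC 1, ZNF354A, ZNF670 and ZNF189 had log2 fold changes of 0.44, 0.41 and 0.32, down from 0.74, 0.70 and 0.61. The value of ZNF23 is uncertain, since 96.1% of its transcript windows were shared with an overlapping gene, and so is that of ZNF417, which shared 23.5%, mainly with its close relative ZNF587. Without shNC 1 the KRAB-like median was 0.19 and that of the others 0.04. At an unadjusted p under 0.05, 15 KRAB-like members were then higher and 1 lower. Of the others, 11 were higher and 9 lower, beside 13.4% and 11.4% of all genes tested. With the GC and length correction, 16 KRAB-like members were higher and 1 lower. Of the others, 18 were higher and 8 lower there, beside 15.7% and 12.0% of all genes with a GC value. Because the classes were compared with the results in view, no test of the difference was made.

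By number of fingers, the medians had no steady order. The median log2 fold change was 0.06 for the 18 members with 0 to 2 fingers and -0.00035 for the 24 with 3 to 5. It was 0.20 for the 46 with 6 to 10, 0.15 for the 32 with 11 to 15 and 0.32 for the 12 with 16 to 40. Without shNC 1 the 5 medians were 0.0027, -0.01, 0.11, 0.17 and 0.16 in the same order. ZNF142 and ZNF462, which had the most fingers of all members, 36 and 33, had log2 fold changes of 0.08 and 0.16 and overlapping groups. The 4 members in which no finger was found were ZNF185, ZNF330 and the related corepressors ZNF703 and ZNF503, and their groups overlapped as well.

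Transcript GC content moved with these values. The Spearman correlation of the log2 fold change with the GC content of the reference transcript was -0.52 across the 132 members and -0.46 across 11385 tested genes, all points sharing the same 6 libraries. Without shNC 1 it was -0.25 and -0.24. In the 33 members with the lowest GC content, 34.2 to 41.8%, the median log2 fold change was 0.40, beside 0.25 for the 2836 other tested genes in that range. In the next 33 members, 41.9 to 45.7%, it was 0.33 beside 0.09 for the other genes. The 33 members from 46.0 to 55.1% had a median of 0.03 beside -0.04, and the 33 with the highest GC content, 55.6 to 70.4%, one of -0.10 beside -0.15. Without shNC 1 the 4 medians shrank or shifted to 0.17 beside 0.10, 0.19 beside 0.04, 0.05 beside -0.01 and -0.03 beside -0.08. The KRAB-like members had a median GC content of 44.1% and the others one of 51.1%. Within the lowest range, the 10 KRAB-like members all had positive log2 fold changes, with a median of 0.72, and the 23 others had a median of 0.23. Within the next range the medians were 0.35 in 21 KRAB-like members and 0.23 in 12 others. From 46.0 to 55.1%, however, the 13 KRAB-like members had a median of -0.01 and the 20 others one of 0.04, and above 55.6% it was -0.13 in 5 KRAB-like members and -0.06 in 28 others. Without shNC 1 the KRAB-like and other medians were 0.41 and 0.01 in the lowest range, 0.20 and 0.15 in the next, -0.02 and 0.06 in the one after and -0.04 and -0.03 in the highest. In the lowest range, ZNF860 and ZNF92 (KRAB-like) and ZNF804A, ZNF800 and ZNF277 (others) reached 2 FPKM only through shPQBP1. In the next range, ZNF184, ZNF791, ZNF23 and ZNF417, all KRAB-like, did so. Their means had to be higher in shPQBP1, and the medians by range hold them. ZNF114, from 46.0 to 55.1%, and ZNF579, above 55.6%, reached the limit only through shNC and had to be lower.

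**Figure D3:**
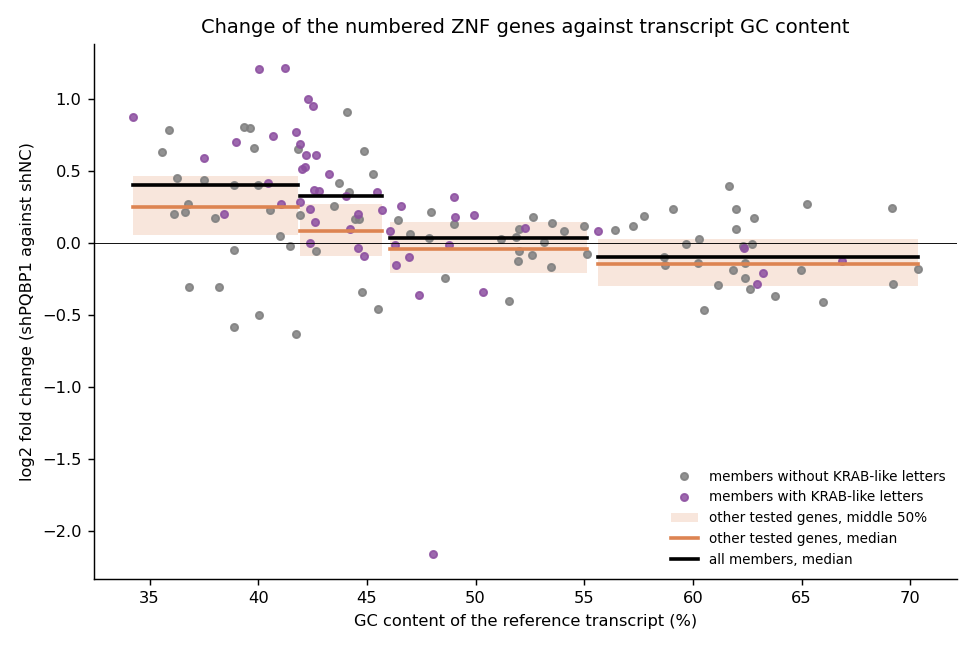
Log2 fold change against the GC content of the reference transcript in percent, with 1 point per member (purple with, grey without a KRAB-like pattern). Black lines give the median of all members and orange lines and bands the median and interquartile range of the other tested genes in each of the 4 ranges of GC content. Both medians fall from left to right, from 0.40 and 0.25 to -0.10 and -0.15, with the members above the other genes in each range.

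The sample medians differed between libraries. Each member's deviation from its 6-sample mean on the log2 scale was taken, and the median over the 33 members of lowest GC content was -0.65 in shNC 1, 0.12 in shNC 2 and 0.01 in shNC 3. In shPQBP1 1, 2 and 3 it was 0.34, 0.04 and 0.27. The shPQBP1 2 sample thus lay among the control samples there, and the other shPQBP1 samples lay above all of them. In the 33 members of highest GC content the order of shNC 1 and shPQBP1 1 was turned round, with 0.21 in shNC 1 and -0.13 in shPQBP1 1. The medians of the 49 KRAB-like members were -0.27, -0.11 and -0.03 in the shNC samples and 0.17, 0.11 and 0.15 in the shPQBP1 samples, so that these groups did not overlap. Of the 49, only 42 had both group means of at least 2 FPKM. The rest were kept through 1 group, mostly shPQBP1, which bears on this separation.

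**Figure D4:**
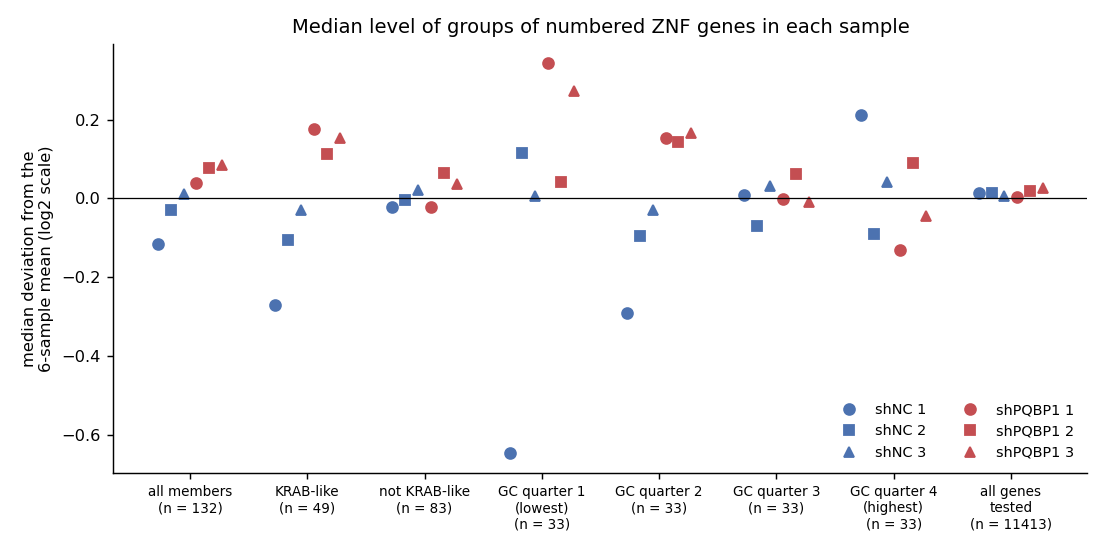
Median deviation from the 6-sample mean, on the log2 scale, of groups of members and of all genes tested, with 1 point per sample (shNC blue, shPQBP1 red, marker shape for the sample number). The shNC 1 sample lies at -0.65 for the members of lowest GC content and at 0.21 for those of highest GC content. The 3 shPQBP1 points of the KRAB-like members, some of which were kept through 1 group only, lie above the 3 shNC points.

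With GC content and transcript length fitted out of each sample, the members' median was 0.13, that of the KRAB-like members was 0.21 and that of the others 0.09. The median of all genes with a GC value was 0.03 there. The number of members at an unadjusted p under 0.05 became 34 (higher) and 9 (lower), beside 15.7% and 12.0% of all genes with a GC value. At an adjusted p under 0.05 it became 9 of 132, beside 8.24% of those genes. The 9 were ZNF114, ZNF860, ZNF22, ZNF281, ZNF358, ZNF367, ZNF507, ZNF703 and ZNF710, and of the members called without the correction ZNF114 and ZNF860 were among them and ZNF426 was not. ZNF281 had a log2 fold change of -0.78 there (adjusted p = 0.02, limma) and ZNF703, a corepressor amplified in luminal breast cancer, one of 0.48 (adjusted p = 0.0253, limma; up to 0.494 over its alternatives).

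The 42 members on chromosome 19 had a median log2 fold change of 0.18, while the 641 other tested genes of chromosome 19 had one of -0.09, with median GC contents of 45.3% and 59.3%. The 90 members on other chromosomes had a median of 0.12. Without shNC 1 these 3 medians were 0.14, -0.02 and 0.07. Where at least 4 members lay with neighbours under 1 Mb apart, the clusters differed. In chr19:11559374-12633840 all 4 members (ZNF627, ZNF823, ZNF700 and ZNF791) carried the KRAB-like pattern and had positive log2 fold changes, with a median of 0.64 (0.39 without shNC 1). ZNF791 ranged from 0.51 to 4.22 FPKM within shNC and from 1.10 to 5.72 within shPQBP1, so its log2 fold change of 0.95 ± 0.89 (SE), 0.40 without shNC 1, lay within its spread. In chr19:9140397-9675100, which holds ZNF426, 5 of 6 members had positive values and the median was 0.29. In chr19:57351271-58277495, 12 of the 13 members were KRAB-like and the median was 0.18. In chr19:55576774-56121295 none of the 4 members (ZNF579, ZNF580, ZNF581 and ZNF787) had the KRAB-like pattern, the median GC content was 67.6%, and all had negative values with a median of -0.24. Of these, ZNF579 reached 2 FPKM only through shNC and had to be lower. The 5 members of chr19:43596392-44237268 had a median of -0.14, and the 4 of chr16:30378106-30787205 one of 0.06 (0.14 without shNC 1).

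The 250 bases before the RefSeq start site were read for 111 of the 132 members (RefSeq, GRCh38.p14), so that members that leaned together could be compared by promoter. The letters CCGGAAGT, an ETS factor motif, were found on either strand in 16.2% of the member promoters, beside 3.64% of 27305 promoters of all genes. They were in 24.4% of the 41 KRAB-like ones and in 11.4% of the 70 others. CCAAT was found in 36.0% of members, 51.2% of KRAB-like members and 27.1% of the others, beside 33.0% of all. GGGCGG, the GC box of SP1, was found in 64.9% (56.1% of KRAB-like members and 70.0% of the others) beside 42.3%, and TATAAA in 2.70% beside 11.1%. AAGATGGC (YY1) and GCGCATGCG (NRF1) were found in 3.60% and 4.50% of members, beside 1.37% and 1.78%. The member promoters held a median of 19 CG pairs, and those of all genes 11. The 27305 were not limited to expressed genes, so these shares do not compare the members with other expressed genes. Matches of different motifs may overlap, and a match is a description of the letters only. The promoters of ZNF860 (chr3:31981500-31981749, plus strand), ZNF426 (chr19:9538646-9538895, minus strand) and ZNF184 (chr6:27473106-27473355, minus strand) are shown, the first pair because these members rose and the last because it holds the ETS letters, in the sense direction with motif matches in capitals. CCGCCC is the GC box on the opposite strand.
ZNF860: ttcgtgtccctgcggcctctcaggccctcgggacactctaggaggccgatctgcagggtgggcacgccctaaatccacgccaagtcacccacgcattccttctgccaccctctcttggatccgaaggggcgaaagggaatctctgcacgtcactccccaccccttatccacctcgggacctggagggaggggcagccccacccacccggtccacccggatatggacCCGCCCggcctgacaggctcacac
ZNF426: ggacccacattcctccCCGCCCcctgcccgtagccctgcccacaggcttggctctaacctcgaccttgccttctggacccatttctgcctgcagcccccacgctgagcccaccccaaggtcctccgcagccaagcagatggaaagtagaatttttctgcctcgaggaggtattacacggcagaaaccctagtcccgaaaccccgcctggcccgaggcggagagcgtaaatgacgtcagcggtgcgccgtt
ZNF184: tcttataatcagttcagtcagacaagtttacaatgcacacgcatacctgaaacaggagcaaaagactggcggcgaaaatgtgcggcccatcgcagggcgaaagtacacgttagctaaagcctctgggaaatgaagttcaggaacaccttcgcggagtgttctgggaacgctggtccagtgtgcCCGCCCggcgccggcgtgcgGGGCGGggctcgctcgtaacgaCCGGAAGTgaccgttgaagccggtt

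The partners of the KRAB domain were measured in the same samples. Of 26 genes of the KRAB corepressor and silencing machinery, 25 were tested, and limma called 0 of them at an adjusted p under 0.05. At an unadjusted p under 0.05, 2 (8%) were higher and 1 (4%) lower, beside 11.9% and 11.7% of all genes tested. The median log2 fold change was 0.17. Without shNC 1, 4 were higher and 2 lower, beside 13.4% and 11.4% of all genes tested, and the median was 0.06. TRIM28, which binds KRAB domains directly, was the lower one, at 50.66, 48.55 and 45.27 FPKM in shNC and 37.03, 41.69 and 37.51 in shPQBP1. Its groups did not overlap, but the log2 fold change was -0.31 ± 0.08 (SE; adjusted p = 0.101, limma), and -0.11 with the GC and length correction (adjusted p = 0.374, limma; 0.0845 to 0.399 over all alternatives). The higher ones were TASOR, a subunit of the HUSH silencing complex (log2 fold change 0.73; adjusted p = 0.14, limma), and the histone methyltransferase SUV39H2 (0.74; adjusted p = 0.186, limma). SETDB1 was at 5.56, 4.80 and 4.76 FPKM in shNC and 5.52, 5.27 and 5.41 in shPQBP1, with a log2 fold change of 0.10 ± 0.09 (adjusted p = 0.518, limma) and overlapping groups.

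Other finger gene families were read from the same fit. The 30 tested ZBTB genes, which join a BTB domain to C2H2 fingers, had a median log2 fold change of 0.14, with 4 higher and 0 lower (unadjusted p under 0.05), and without shNC 1 one of 0.06, with 6 higher and 2 lower. The 16 ZSCAN and ZKSCAN genes had a median of 0.10, with 2 higher (12.5%) and 2 lower (12.5%). The 17 KLF and SP genes had one of 0.07, with 2 higher (11.8%) and 1 lower (5.88%). These shares are near or under those of all genes tested. The 11 ZFP genes had a median of 0.22, and 2 of them rose, ZFP36L1 and ZFP36L2, which are mRNA decay factors with CCCH fingers and not C2H2 factors. Their log2 fold changes were 0.52 and 0.47 (adjusted p = 0.025 and 0.0306, limma). Of all genes tested, 1.73% rose at an adjusted p under 0.05.

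The limit of 2 FPKM left similar genes on both sides. Just inside it lay ZNF473, a factor in histone pre-mRNA processing, ZNF544 and ZNF92, with log2 fold changes of 0.03, -0.10 and 0.88. Just outside lay ZNF707, ZNF180 and ZNF343, with -0.56, 1.23 and 0.37. The value of ZNF180 rested on shNC 1, at 0.21 FPKM against 2.15 and 1.92 in the other shNC samples and 2.42 to 2.75 in shPQBP1. The 121 numbered ZNF genes with a mean from 1 to under 2 FPKM had a median log2 fold change of 0.35 (0.24 without shNC 1). Before adjustment 28 (23.1%) were higher and 3 (2.48%) lower, beside 11.9% and 11.7% of all genes tested. Of the 121, 2 rose at an adjusted p under 0.05, both KRAB-like, where 1.73% of all genes tested rose. ZNF267 was at 0.50, 0.62 and 0.93 FPKM in shNC and 2.82, 2.0 and 2.69 in shPQBP1 (log2 fold change 1.75 ± 0.25, SE; adjusted p = 0.025, limma). ZNF440 was at 1.03, 1.14 and 1.52 FPKM in shNC and 2.57, 2.41 and 2.55 in shPQBP1 (0.99 ± 0.16; adjusted p = 0.035, limma). The shNC mean of ZNF267 was 0.68 FPKM, so it reached the test limit of 1 FPKM only through shPQBP1 and had to differ. Others of the 121 did so too, such as ZNF559 with group means of 0.69 and 1.41 FPKM. The median and counts of the 121 hold such genes and are descriptions.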

How the data were processed

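Poly(A) RNA of the 6 HEY samples was sequenced as paired ends. The authors used HISAT2 2.2.0, SAMtools 1.9, StringTie 1.3.0, edgeR and the hg38 build; the annotation release and strandedness are not given in the sources used here. The values are FPKM per gene and sample as deposited by the authors, unpooled, with 0 columns of per-sample values left unused. The table's columns of fold change, p, q and regulation hold the authors' own comparison and were not used. Depth is unknown, because no steps of whole reads were found in the low values (strength 0.108 to 0.144 on a scale of 0 to 1), so no counting interval is given.

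Genes with a mean of at least 1 FPKM were tested on log2(FPKM + 0.1), which understates the change of low genes, by limma 3.58.1 in R 4.3.3 (lmFit, eBayes with trend; two-sided), adjusted by Benjamini-Hochberg over all 11413. Calls are at an adjusted p under 0.05; counts at an unadjusted p under 0.05 are descriptions. Fingers were counted in the coding sequence of the canonical GENCODE transcript by the spacing of cysteines and histidines, and KRAB-like genes by letter patterns, with Python 3.11.15. Windows of 100 bases were compared with transcripts of other genes. Replicate numbers were not taken as pairs.

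Named were PQBP1 and ZNF114, members at an adjusted p under 0.05, the 6 largest rises and 6 largest falls among the others at an unadjusted p under 0.05 without overlap of the groups, the 5 highest levels, 3 genes on each side of the limit, the members with most and fewest fingers, TRIM28 and SETDB1. ZNF267, ZNF440, ZNF791 and the names given for counts were chosen after their values were seen. The members and lists were chosen with earlier results of these data known. Alternatives were another scaling, pseudocount, filter, a replicate block, a GC and length correction, and leaving out each sample. The fit was tested on simulated data.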

Additional observations from a re-analysis of the deposited data

How the results depend on the processing

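The median log2 fold change of the members stayed positive under every alternative run (0.08 to 0.16), beside medians of -0.02 to 0.03 for all genes tested. Of 509 values of 32 named genes, 470 kept their side of the threshold, 30 lost it, 9 gained it and 0 passed it in the opposite direction. The sign was the same in 496. Among these genes only PQBP1, ZNF114, ZNF860 and ZNF426 were called in the main fit, so only they could lose a call. When 1 sample was left out, PQBP1 kept its call in all 6 fits, ZNF860 in 2, ZNF114 in 1 and ZNF426 in 0. The number of members at an adjusted p under 0.05 was 3, and 0 when all genes above 0 were tested by limma (20 higher and 11 lower before adjustment), where ZNF114 had an adjusted p of 0.0926 at -2.17. Over members with both group means of at least 2 FPKM, an alternative chosen after seeing the data, 1 member passed the adjusted p and 1 the fold limit. With a pseudocount of 1, 2 members passed the fold limit, and ZNF114 was -1.61 (adjusted p = 0.0576, limma; 0.0246 to 0.174 over its alternatives). The GC and length correction gave 9 members at an adjusted p under 0.05 and 34 higher at an unadjusted one. The replicate numbers did not pair the samples (correlations of same-numbered samples -0.19, -0.14 and -0.01). A replicate block left 0 members and 0 of all genes at an adjusted p under 0.05 and 16 higher and 4 lower before adjustment, with PQBP1 at -2.04 (adjusted p = 0.0686, limma) and ZNF114 at -2.17 (0.174). With the block and the GC correction these were 0, 7, -1.86 (0.0543) and -2.11 (0.111), and 21 of all genes were called. The cause was not tested. Before adjustment, 1840 of the 11413 genes passed in either direction with the block alone, and 2417 of 11385 with the GC correction as well. Leaving out 1 sample gave 0 to 5 members at an adjusted p under 0.05 (5 without shNC 1, 2 without shNC 3 and 0 without any of the others). Of all 11413 genes tested, 464 passed without shNC 1, 65 without shNC 3 and 30 to 93 without each of the others, so the member counts moved with those of all genes. Leaving out 1 sample also gave 2 to 7 members at the fold limit (7 without shNC 2, 6 without shNC 3, 2 without shNC 1 or shPQBP1 1), 12 to 28 higher (12 without shPQBP1 1, 13 without shPQBP1 2) and 6 to 14 lower (6 without shNC 3 or shPQBP1 1) at an unadjusted p under 0.05. Of all genes tested, 1780 to 2940 passed that unadjusted threshold in either direction. ZNF114 lay between -2.44 and -1.70 and PQBP1 between -2.08 and -1.96 in these fits.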
